A study of Homo sapiens with 8 samples.

Results

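The proteasome subunit genes outside the immunoproteasome were described in 3 human cell lines read by direct RNA sequencing, in which each native RNA strand passes through a nanopore without being copied into cDNA. Members were the annotated genes named PSMA, PSMB, PSMC, PSMD or PSME followed by a number, without PSMB8, PSMB9 and PSMB10, and 38 of the 20565 annotated genes of the deposited tables met this rule. They comprised 7 genes of the 20S alpha ring, 7 of the 20S beta ring, 6 ATPases of the 19S particle, 14 PSMD genes and 4 activators. The PSMD genes were grouped by name as non-ATPase subunits of the 19S particle, although this group also holds assembly chaperones, PSMD5 and PSMD10 among them. Of their 3419 transcript models, 2299 had reads. The lines were K562 with 2 libraries, HepG2, a hepatocellular carcinoma line, with 3, and GM12878, a lymphoblastoid line, with 3. No treatment is named in the labels, and each line stands for 1 individual's cells, so a difference between lines is not a difference between tissues. Whether replicate libraries stem from different cultures is not stated in the labels. The p-values thus reflect library-to-library spread alone, part or all of which could be technical.

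The proteasome is the main protease of the cytosol and nucleus and degrades proteins tagged with ubiquitin. Its 20S core is a stack of alpha and beta rings: alpha subunits form the gate, and PSMB5, PSMB6 and PSMB7 carry the catalytic sites of the standard core. The 19S particle binds and unfolds substrates through its ATPases and non-ATPase subunits, while PSME1 and PSME2 build the PA28 activator, known for its induction by interferon gamma. In B cells and other immune cells, PSMB8, PSMB9 and PSMB10 take the places of PSMB5, PSMB6 and PSMB7 to form the immunoproteasome. Many proteasome genes are known to be induced together by the transcription factor NFE2L1 when proteasome activity falls.

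Libraries held 142837 to 313454 reads in K562, 248490 to 461497 in HepG2 and 70374 to 176118 in GM12878. The labels give K562 the same cell type as GM12878, although the line is known as a myelogenous leukaemia line. Of 7 B cell markers, 5 had no read in K562, and the list summed to 3.45 to 6.49 CPM there (reads scaled to a common library size), against 9030 to 9750 in GM12878. Erythroid markers summed to 31700 to 34000 CPM in K562, and hepatocyte markers to 95400 to 119000 CPM in HepG2. The K562 libraries differed from each other more than those of the other lines, with a chi-square per degree of freedom of 3.53 over genes, against 1.4 to 2.22 in HepG2 and 1.23 to 1.39 in GM12878. CPM are computed over tested genes with TMM factors, edgeR's scaling for composition, and are not divided by length because 1 read is 1 RNA strand. Fewer RNAs per cell and fewer cells of a kind cannot be told apart in such bulk libraries.

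Read together, the proteasome genes were at similar levels in the 3 lines. Their summed level was 10600 and 9110 CPM in K562, 11400, 11000 and 12400 CPM in HepG2, and 10300, 11400 and 10100 CPM in GM12878. The ranges of GM12878 overlapped those of both other lines, and all HepG2 libraries were above both K562 libraries. This order depended on the scaling: as CPM of the whole library without TMM factors, the mean sum was 9930 in K562, 8810 in HepG2 and 10500 in GM12878. The median gene had 227 CPM in K562, 226 in HepG2 and 258 in GM12878, against 65.0, 80.9 and 66.8 CPM over all 4778 tested genes. Among subcomplexes, the sum of the activators stood apart in K562, at 415 and 417 CPM, against 1580, 1480 and 1640 CPM in HepG2 and 1440, 1430 and 1210 CPM in GM12878. Of these 4 genes, PSME3 did not share the difference, with means of 178 CPM in K562, 155 in HepG2 and 186 in GM12878. PSME4 had only 63 reads in all. The beta ring summed to 3680 ± 296 CPM in K562 (SD, n = 2), 4590 ± 308 in HepG2 and 3110 ± 134 in GM12878 (SD, n = 3 each).

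**Figure D1:**
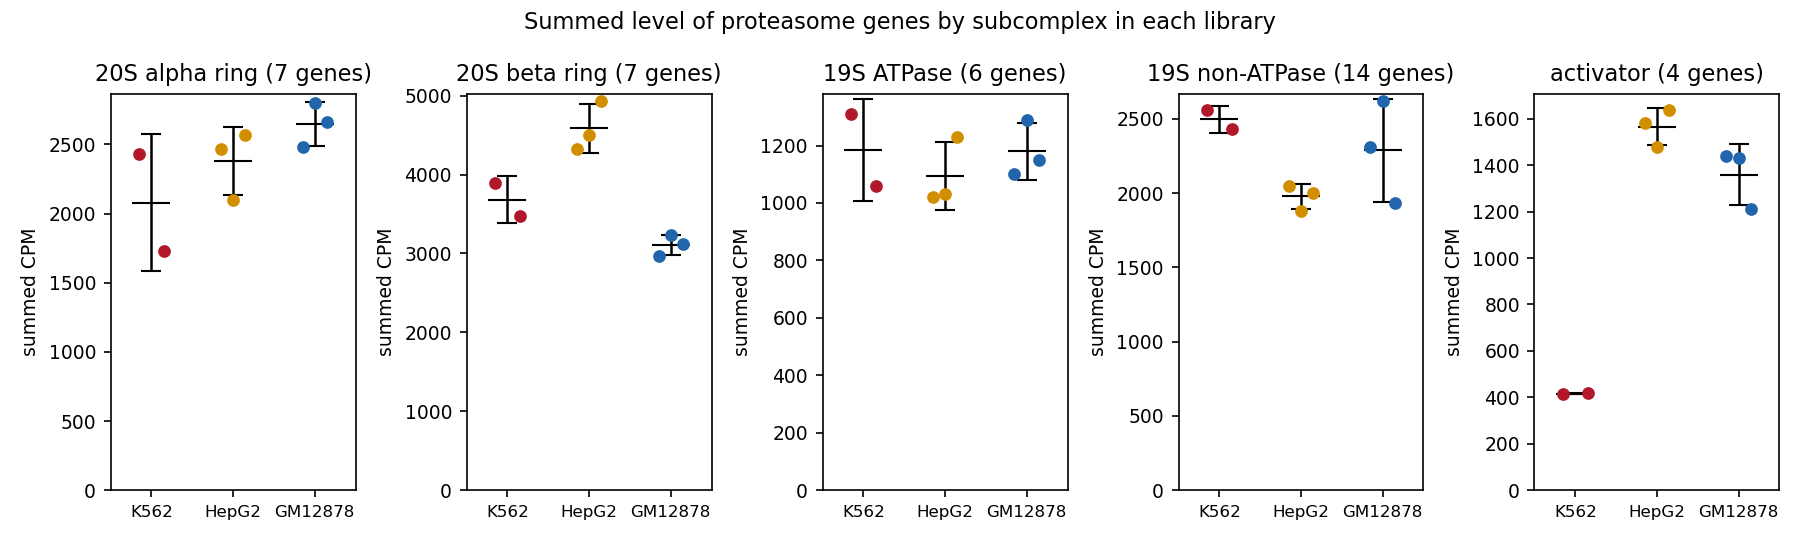
Summed CPM of the genes of each proteasome subcomplex (y axis) in each library of K562, HepG2 and GM12878 (x axis); points are libraries, and bars are the mean and SD. The activators were at 415 and 417 CPM in K562, below every HepG2 and GM12878 library, while the ATPase sums overlapped between the lines.

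Of the 38 genes, 36 passed the filter on low counts, and PSMC6 and PSMD10 did not. Calls required at least a 2-fold change with an adjusted p under 0.05. By this rule 8 genes were called in at least 1 of the 3 comparisons, namely PSMA2, PSMA3, PSMA6, PSMA7, PSMB5, PSMD5, PSME1 and PSME2, where 65.5% of all 4778 tested genes were called in at least 1. At an adjusted p under 0.05 at any fold they were 19, against 72.3% of all tested genes, and 17 of the 36 passed in none. The median absolute log2 change of the members was 0.42 in HepG2 against GM12878, 0.32 in K562 against GM12878 and 0.60 in K562 against HepG2. Over all tested genes it was 1.06, 0.71 and 0.95 in the same comparisons. Each line enters 2 of the comparisons, so their changes are not independent.

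PSMB5 encodes the catalytic subunit with chymotrypsin-like activity, the main target of bortezomib. It had 266 and 321 CPM in K562, 1140, 1200 and 1290 CPM in HepG2, and 160, 227 and 98.4 CPM in GM12878. All HepG2 libraries lay above all others, and both K562 libraries lay above all GM12878 libraries. The log2 change was 2.80 ± 0.24 (SE) in HepG2 against GM12878, with an adjusted p of 8.28e-15, and -2.03 ± 0.25 in K562 against HepG2, with an adjusted p of 7.01e-10. In K562 against GM12878 it was 0.78 ± 0.28, under 2-fold, with an adjusted p of 0.0272. Among the 14 genes of the 20S core, PSMB5 had the 10th highest mean level in K562, the highest in HepG2 and the lowest in GM12878. Both large differences were called under all 15 alternatives tried, each of which scaled the libraries by TMM or DESeq2 size factors.

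The other beta subunits differed less. PSMB1, a structural subunit, had the highest mean of the ring in K562 and GM12878, with 1150 and 952 CPM in K562, 930, 867 and 973 CPM in HepG2, and 653, 704 and 942 CPM in GM12878. PSMB2, also structural, was the lowest of the ring in HepG2, with 610 and 531 CPM in K562, 323, 227 and 383 CPM in HepG2, and 380, 448 and 337 CPM in GM12878. It was higher in K562 than in HepG2 by a log2 change of 0.85 ± 0.24, short of 2-fold, with an adjusted p of 0.00271. PSMB6, the caspase-like catalytic subunit, was the lowest of the ring in K562, at 260 and 321 CPM, against 432, 523 and 424 CPM in HepG2, and had 260, 401 and 309 CPM in GM12878. Its log2 change in K562 against HepG2 was -0.64 ± 0.25, with an adjusted p of 0.0316, and it passed an adjusted p under 0.05 in 5 of 15 alternatives. PSMB3, PSMB4 and PSMB7, the last with trypsin-like activity, and PSMB1 passed the test in no comparison. Their log2 changes lay between -0.36 and 0.48.

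The alpha ring held the called genes with the smallest changes. PSMA6 had 260 and 179 CPM in K562, 681, 576 and 505 CPM in HepG2, and 380, 372 and 366 CPM in GM12878, with no overlap between any lines. PSMA7 had 435 and 262 CPM in K562, 699, 623 and 940 CPM in HepG2, and 442 ± 112 CPM in GM12878 (SD, n = 3), where its replicates had 51, 73 and 40 reads. It was the highest of the ring in HepG2, and its K562 and GM12878 libraries overlapped. In K562 against HepG2 the log2 change was -1.46 ± 0.26 for PSMA6, with an adjusted p of 4.69e-06. It was -1.15 ± 0.26 for PSMA7, with an adjusted p of 0.000164, and without K562 replicate 2 it was -0.82, under 2-fold. AL121594.1, which overlaps PSMA6 on the same strand, had 52 reads in K562, 303 in HepG2 and 55 in GM12878, and its part in the PSMA6 counts was not tested.

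PSMA2 and PSMA3 were lower in HepG2 than in GM12878. PSMA2 had 350 and 379 CPM in K562, 269, 180 and 269 CPM in HepG2, and 560, 663 and 380 CPM in GM12878, so that the 3 lines did not overlap, though K562 and GM12878 nearly met. Its log2 change in HepG2 against GM12878 was -1.18 ± 0.24, with an adjusted p of 2.79e-05, and without HepG2 replicate 2 it was -0.97. MRPL32, which overlaps PSMA2 on the other strand, had 25 reads in K562, 29 in HepG2 and 35 in GM12878, and its part was not tested. PSMA3 had 214 and 138 CPM in K562, 181, 174 and 184 CPM in HepG2, and 293, 384 and 422 CPM in GM12878. All GM12878 libraries were above the others, and those of K562 spanned the HepG2 values. Its log2 change was -1 ± 0.26 in HepG2 against GM12878, with an adjusted p of 0.000789, and -1.08 ± 0.30 in K562 against GM12878, with an adjusted p of 0.00346. Both lay at the 2-fold limit, and the calls were kept in 5 and 8 of 15 alternatives. PSMA4 lay just under the limit in HepG2 against GM12878, at a log2 change of -0.99 ± 0.24 and an adjusted p of 0.000381. Of the rest of the ring, PSMA5 was the highest in K562, with 590 and 331 CPM, against 302, 248 and 324 CPM in HepG2 and 287, 332 and 380 CPM in GM12878. PSMA1 was the lowest in HepG2 and GM12878, with 221 and 179 CPM in K562, 107, 95.1 and 129 CPM in HepG2, and 207, 180 and 112 CPM in GM12878. AC018523.2, which overlaps PSMA1 on the same strand, had 48 reads in K562, 67 in HepG2 and 26 in GM12878. PSMA1 itself had 245 reads over all libraries, and the part of AC018523.2 in them was not tested. PSMA1 and PSMA5 were higher in K562 than in HepG2, by log2 changes of 0.83 ± 0.31 and 0.62 ± 0.26, short of 2-fold. Their adjusted p-values were 0.0231 and 0.0398. Under 15 alternatives these changes passed an adjusted p under 0.05 in 11 for PSMA1 and 9 for PSMA5. The PSMA5 change ranged from 0.23 to 0.99.

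Of the activators, PSME1 and PSME2 carried the lowest K562 values relative to the other lines. PSME1, the PA28 alpha subunit, had 58.4 and 145 CPM in K562, 897, 835 and 763 CPM in HepG2, and 467, 535 and 295 CPM in GM12878. PSME2, the PA28 beta subunit, had 110 and 128 CPM in K562, 509, 460 and 615 CPM in HepG2, and 687, 675 and 759 CPM in GM12878. The lines did not overlap for either gene, and PSME1 was highest in HepG2 while PSME2 was highest in GM12878. In K562 against GM12878 the log2 change was -2.02 ± 0.31 for PSME1, with an adjusted p of 4.71e-07, and -2.54 ± 0.28 for PSME2, with an adjusted p of 1.13e-10. In K562 against HepG2 it was -2.92 ± 0.30 for PSME1, with an adjusted p of 4.96e-12, and -2.13 ± 0.28 for PSME2, with an adjusted p of 3.34e-09. Without K562 replicate 2, the library with the higher PSME1 level, the PSME1 change was -2.91 in K562 against GM12878 and -3.84 in K562 against HepG2. Over 15 alternatives the PSME1 change ranged from -2.91 to -1.58 in the first comparison and from -3.84 to -2.44 in the second. Counted over known transcripts alone, the PSME2 change was -1.89 in K562 against GM12878, and in K562 against HepG2 it was -0.94, with an adjusted p of 0.0539 in a range of 1.03e-10 to 0.0539 over its 15 alternatives. In HepG2 against GM12878, PSME1 was higher by 0.90 ± 0.23, short of 2-fold, with an adjusted p of 0.000755, and PSME2 had a log2 change of -0.41 ± 0.21, with an adjusted p of 0.0927. Genes on the other strand overlap both: EMC9, which overlaps PSME1, had 8 reads in K562, 134 in HepG2 and 14 in GM12878, and RNF31, which overlaps PSME2, had 15, 70 and 18 reads in the same lines. The sources used here do not say whether counting used strand, and their part was not tested.

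The remaining activators are nuclear. PSME3, the PA28 gamma subunit, was the highest activator in K562, with 247 and 110 CPM, against 151, 122 and 192 CPM in HepG2 and 227, 192 and 141 CPM in GM12878, and the 3 lines overlapped. PSME4, which encodes PA200, was the lowest activator in each line, with 0 and 34.5 CPM in K562, 23.7, 63.4 and 70.0 CPM in HepG2, and 60, 23.3 and 14.1 CPM in GM12878. Its 63 reads over 8 libraries leave its changes poorly resolved, with an interval of -2.47 to 0.10 on the log2 scale in K562 against HepG2.

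**Figure D2:**
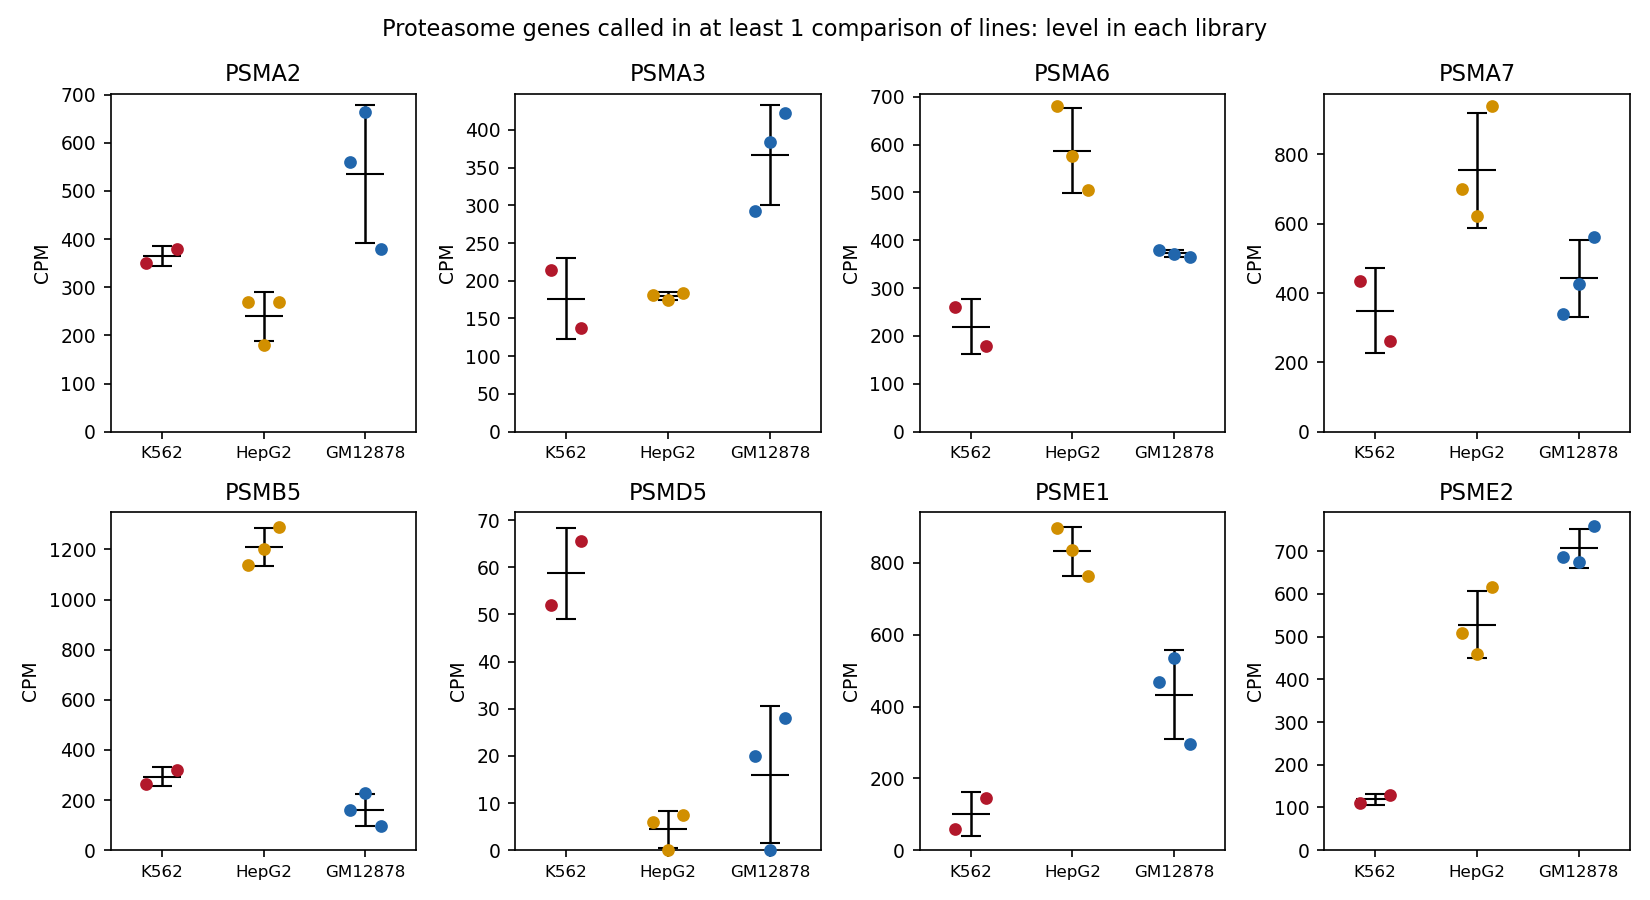
Level in CPM (y axis, from 0) of the 8 proteasome genes called in at least 1 comparison, in each library of K562, HepG2 and GM12878 (x axis); points are libraries, and bars are the mean and SD. PSMB5 was at 1140 to 1290 CPM in HepG2 and no more than 321 CPM elsewhere, and PSME1 and PSME2 were no more than 145 CPM in K562.

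Promoter windows of PSMB5, PSME1 and PSME2 are shown to set the sequences of these called genes beside their levels, as RefSeq gives them for GRCh38.p14, from 250 bases before to 50 after an annotated start, 5′ to 3′ on the gene's strand. Capitals mark the letters of the motifs searched on both strands: CCAAT, bound by NF-Y; TGACNNNGC, the core of the antioxidant response element bound by NFE2L1 and related factors; the core of an interferon response element, given by name only; and TTCNNNGAA, the core of a gamma-activated site. The PSMB5 window is chr14:23035171-23035470 on the minus strand, PSME1 is chr14:24135944-24136243 on the plus strand, and PSME2 is chr14:24146561-24146860 on the minus strand.
PSMB5: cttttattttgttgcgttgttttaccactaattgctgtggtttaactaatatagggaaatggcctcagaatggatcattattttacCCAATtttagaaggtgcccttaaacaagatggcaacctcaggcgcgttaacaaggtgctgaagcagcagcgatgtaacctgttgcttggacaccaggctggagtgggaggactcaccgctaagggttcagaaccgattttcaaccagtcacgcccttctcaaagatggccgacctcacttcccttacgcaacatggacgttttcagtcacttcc
PSME1: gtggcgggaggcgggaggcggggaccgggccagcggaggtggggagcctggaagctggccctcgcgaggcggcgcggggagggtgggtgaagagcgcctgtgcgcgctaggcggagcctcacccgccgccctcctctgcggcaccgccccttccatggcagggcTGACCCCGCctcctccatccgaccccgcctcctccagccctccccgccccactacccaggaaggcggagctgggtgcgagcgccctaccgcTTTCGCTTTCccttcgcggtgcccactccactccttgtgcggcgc
PSME2: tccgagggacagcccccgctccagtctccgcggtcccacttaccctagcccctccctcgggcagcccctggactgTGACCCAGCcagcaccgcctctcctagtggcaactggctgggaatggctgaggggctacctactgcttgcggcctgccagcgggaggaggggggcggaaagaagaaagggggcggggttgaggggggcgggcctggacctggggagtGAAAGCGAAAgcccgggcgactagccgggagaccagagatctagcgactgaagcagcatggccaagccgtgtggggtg
The annotated starts lie 75, 36 and 611 bases from that of the leading known transcript of PSMB5, PSME1 and PSME2 in these reads. The PSMB5 window shown held CCAAT once and none of the other motifs. The PSME1 and PSME2 windows each held 1 antioxidant and 1 interferon response element core. RefSeq windows were matched for 33 genes, 39 windows in all. The antioxidant core was in 12 of them, or 30.8%, against 13.3% of all 35116 windows, and CCAAT was in 17, or 43.6%, against 34.6%. The interferon core was in 4, or 10.3%, against 3.57% of all windows, in PSMA4, PSMB4, PSME1 and PSME2, of which PSMA4 and PSMB4 passed the test in neither comparison of K562. The gamma-activated core was in 6, or 15.4%, against 7.66%, in PSMA2, PSMC4, PSMD2, PSMD3 and PSME3 and in another window of PSMB5, which is not shown. A match of letters is a description and not a binding site.

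In the 19S particle, no ATPase was called at 2-fold in any comparison, and PSMC2 and PSMC3 passed an adjusted p under 0.05. PSMC2 had 234 and 262 CPM in K562, 115, 137 and 162 CPM in HepG2, and 167, 151 and 169 CPM in GM12878. It was higher in K562 than in HepG2 by a log2 change of 0.86 ± 0.29, with an adjusted p of 0.0109. DNAJC2, which overlaps PSMC2 on the other strand, had 35 reads in K562, 22 in HepG2 and 10 in GM12878, and its part was not tested. PSMC3 had the highest mean ATPase level in K562 and GM12878, with 344 and 279 CPM in K562, 190, 164 and 225 CPM in HepG2, and 300, 332 and 295 CPM in GM12878. It was higher in K562 than in HepG2 by 0.67 ± 0.27, with an adjusted p of 0.0325, and lower in HepG2 than in GM12878, by a log2 change of -0.68 ± 0.25, with an adjusted p of 0.0193. PSMC5, the highest in HepG2, had 318 and 224 CPM in K562, 266, 328 and 313 CPM in HepG2, and 267, 326 and 267 CPM in GM12878, and the 3 lines overlapped. PSMC6 was the lowest of the ATPases, with 81 reads over all libraries, 32.4 and 48.3 CPM in K562, 56.3, 21.1 and 84.8 CPM in HepG2, and 40.0, 40.7 and 42.2 CPM in GM12878. PSMC1 shares sequence with the processed copy PSMC1P1, which had 96 reads against 205 of PSMC1, so that its level is uncertain.

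Of the non-ATPase group, PSMD8 was the highest in each line. It had 506 and 542 CPM in K562, 314, 301 and 287 CPM in HepG2, and 400, 495 and 366 CPM in GM12878. It is a subunit of the lid, as is the deubiquitinase PSMD14, and both were higher in K562 than in HepG2, PSMD8 by 0.80 ± 0.24 with an adjusted p of 0.00389 and PSMD14 by 0.76 ± 0.30 with an adjusted p of 0.0310. PSMD13, another lid subunit, was at a log2 change of 0.99 ± 0.32 in K562 against HepG2, with an adjusted p of 0.00725, just under 2-fold. In HepG2 against GM12878 the log2 change was -0.95 ± 0.31 for PSMD13 and -0.85 ± 0.31 for PSMD6. The adjusted p-values were 0.00677 and 0.017. SIRT3, which overlaps PSMD13 on the other strand, had 9 reads in K562, 26 in HepG2 and 2 in GM12878, and its part was not tested. The PSMD6 change passed an adjusted p under 0.05 in 7 of 15 alternatives, and the PSMD14 change in K562 against HepG2 in 9 of 15. The base scaffolds PSMD1 and PSMD2 and the ubiquitin receptor PSMD4 passed in no comparison. PSMD10, an assembly chaperone also called gankyrin, was the lowest in K562 and GM12878 with 43 reads in all, at 19.5 and 13.8 CPM in K562, 38.5, 47.6 and 33.2 CPM in HepG2, and 26.7, 5.82 and 0 CPM in GM12878.

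PSMD5, an assembly chaperone of the ATPase base that is released from the mature particle, was the called gene with the fewest reads. It had 8 and 19 reads in K562, 2, 0 and 2 in HepG2, and 3, 0 and 2 in GM12878, or 51.9 and 65.5 CPM, 5.92, 0 and 7.37 CPM, and 20, 0 and 28.1 CPM in the same libraries. Both K562 libraries were above all others. The log2 change was 3.44 ± 0.70 in K562 against HepG2, with an adjusted p of 3.89e-05, and 2.17 ± 0.71 in K562 against GM12878, with an adjusted p of 0.0138. The second call was lost with DESeq2, at a log2 change of 2.12 and an adjusted p of 0.144, and without GM12878 replicate 2, at 1.44 and 0.17, in a range of 0.00937 to 0.17 over 8 alternatives. Without GM12878 replicate 1 that change was 2.82, and with a replicate block the change in K562 against HepG2 was 4.07. Of its 36 reads, 61.1% were in genomic models, which have no spliced match to the annotation. CUTALP, which overlaps it on the other strand, had 10 reads in K562, 4 in HepG2 and 5 in GM12878, and its part was not tested.

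By comparison, HepG2 against GM12878 had 1 gene called higher and 2 called lower among the 36 tested, PSMB5, PSMA2 and PSMA3, where 28% of all tested genes were called higher and 21.1% lower. At any fold, 4 were higher and 6 lower, against 30.9% and 24.7% of all tested genes. Of these, 5 of the alpha ring passed, PSMA6 and PSMA7 higher and PSMA2, PSMA3 and PSMA4 lower. K562 against GM12878 had PSMD5 called higher and PSMA3, PSME1 and PSME2 called lower, where 13.9% and 14.8% of all tested genes were called. At any fold, 2 were higher and 4 lower, against 15.7% and 16.2%. K562 against HepG2 had PSMD5 called higher and PSMA6, PSMA7, PSMB5, PSME1 and PSME2 called lower, where 17.4% and 26.7% of all tested genes were called. At any fold, 9 were higher and 6 lower, against 21% and 29.4%, and 4 of the 9 were in the non-ATPase group, PSMD5 among them.

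A change that misses the threshold is not thereby shown to be absent, and the intervals give the size that was resolved. The 95% interval of the change lay within 2-fold in either direction for 21 of the 36 genes in HepG2 against GM12878, against 15% of all tested genes. It did so for 20 genes in K562 against GM12878, against 17.6%, and for 16 genes in K562 against HepG2, against 16.1%. Intervals narrow with read number, and the members' median levels were above those of all tested genes. The median log2 change of the members was -0.19, -0.06 and 0.03 in the 3 comparisons, in the same order, and 0.02, 0 and -0.07 over all tested genes.

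**Figure D3:**
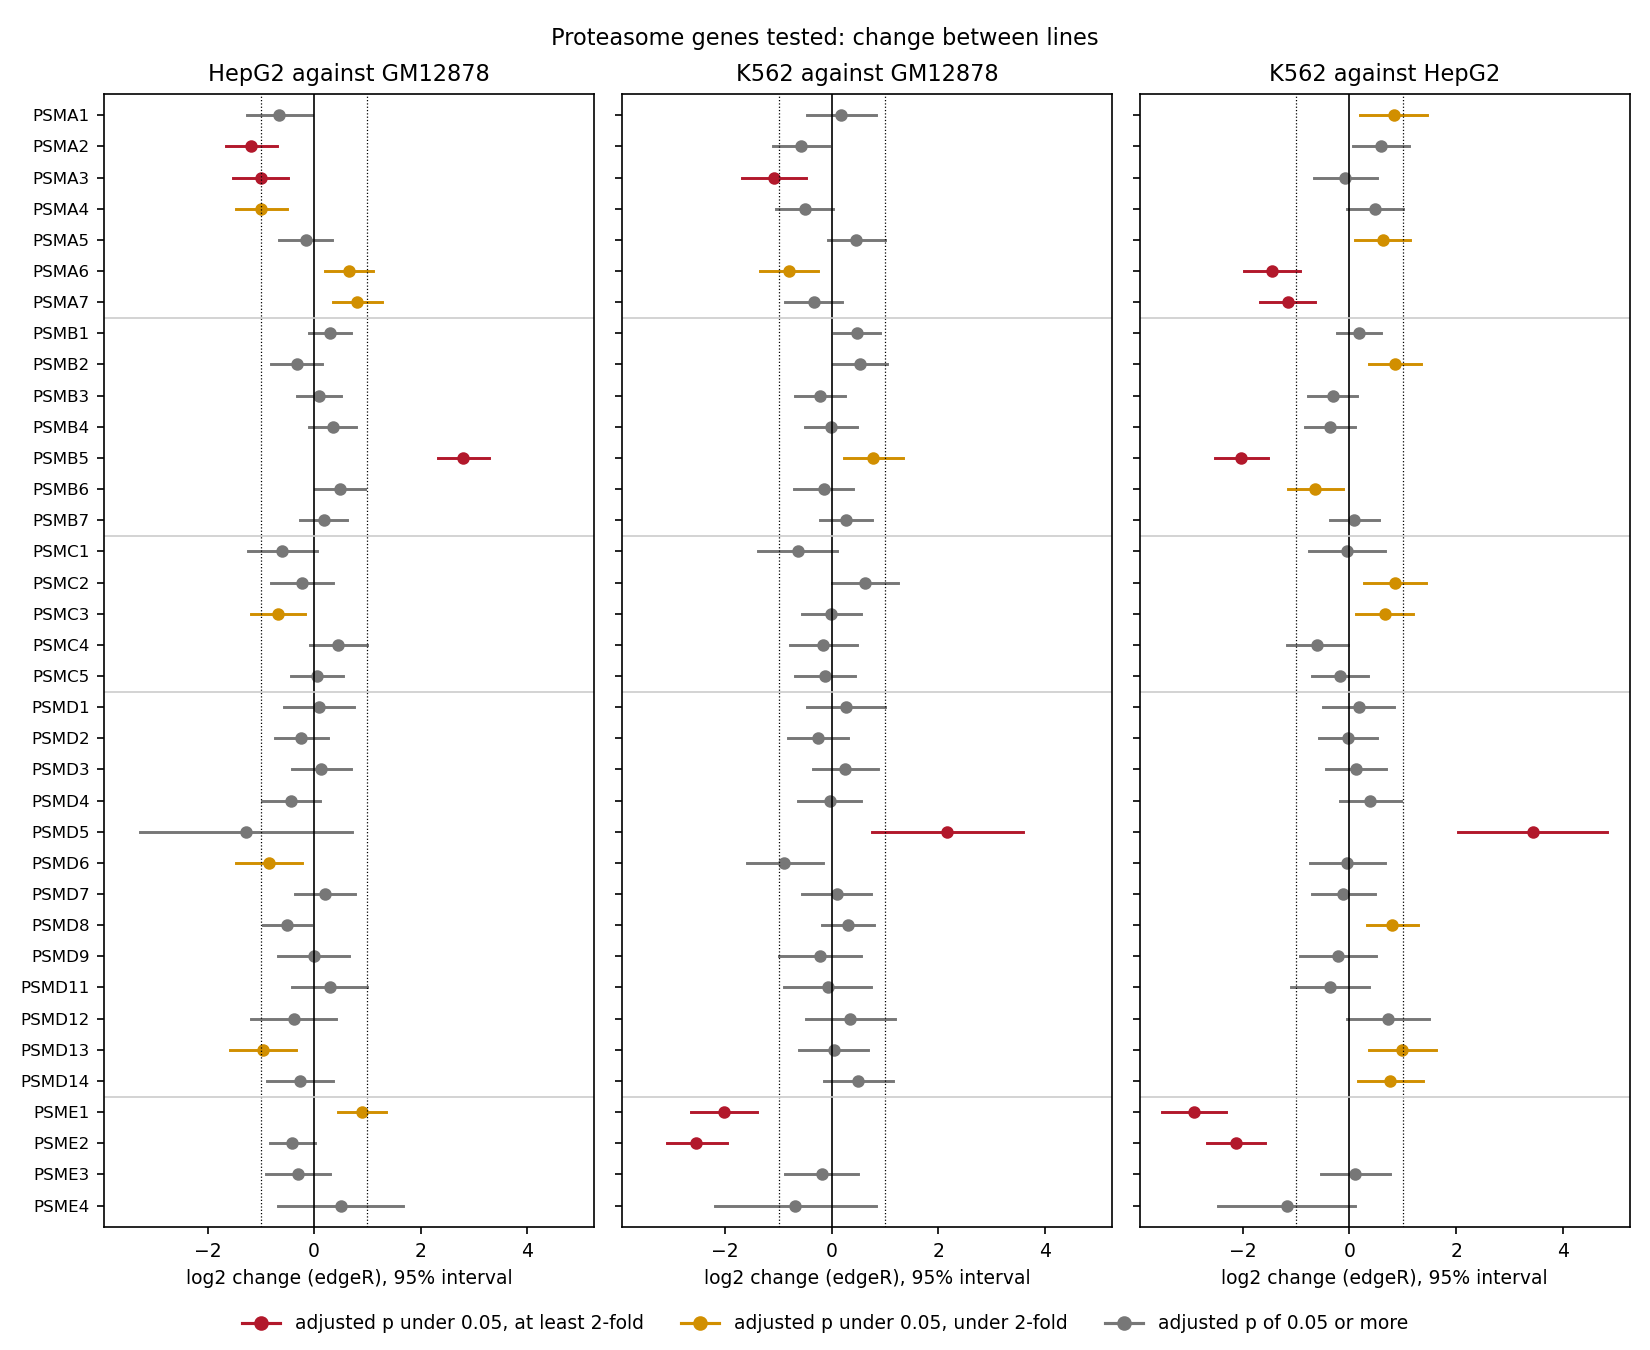
Log2 change with its 95% interval (x axis) of the 36 tested proteasome genes (y axis, by subcomplex) in the 3 comparisons of lines, a positive value being higher in the line named first; dotted lines mark 2-fold. PSMB5 stands apart in both comparisons with HepG2, and PSME1 and PSME2 in both with K562, and most other points lie within 2-fold.

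The catalytic subunits can be set beside their immunoproteasome counterparts, whose genes are counted separately. PSMB8 reads made up 0.532 ± 0.752% of PSMB8 and PSMB5 reads in K562 (SD, n = 2), 6.1 ± 1.9% in HepG2 and 80.4 ± 6.94% in GM12878 (SD, n = 3 each). PSMB9 made up 0.532 ± 0.752% of PSMB9 and PSMB6 reads in K562, 5.3 ± 1.05% in HepG2 and 49.1 ± 2.1% in GM12878. PSMB10 made up 16.5 ± 5.43% of PSMB10 and PSMB7 reads in K562, 11.4 ± 0.199% in HepG2 and 47.3 ± 4.51% in GM12878. GM12878 was thus above both other lines in all 3 pairs. In K562, PSMB8 and PSMB9 had 1 read each, against 134 of PSMB5 and 133 of PSMB6, while PSMB10 had 43. In HepG2 against GM12878 the log2 change was -3.04 ± 0.27 for PSMB8, -3.59 ± 0.37 for PSMB9 and -2.64 ± 0.30 for PSMB10, with adjusted p-values of 3.68e-14, 2.73e-12 and 8.51e-11. The pairs differed in the partner as well: PSMB5 had its lowest levels in GM12878, whereas neither PSMB6 nor PSMB7 passed the test between HepG2 and GM12878.

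Assembly and accessory factors of the proteasome, 14 of 15 tested, had 1 gene called higher and 3 lower in HepG2 against GM12878. They had 1 and 2 in K562 against GM12878, and 4 and 2 in K562 against HepG2. Over all tested genes, 28% were called higher and 21.1% lower in HepG2 against GM12878. These shares were 13.9% and 14.8% in K562 against GM12878, and 17.4% and 26.7% in K562 against HepG2. UCHL5, a deubiquitinase of the 19S particle, changed by -1.87 ± 0.57 in HepG2 against GM12878, with an adjusted p of 0.00451. In K562 against HepG2 it changed by 2.28 ± 0.54, with an adjusted p of 0.000389. UCHL5 had only 32 reads in K562, 12 in HepG2 and 22 in GM12878. The chaperone PSMG4 changed by 1.98 ± 0.41 and the inhibitor PSMF1 by -1.85 ± 0.33 in K562 against HepG2, with adjusted p-values of 4.9e-05 and 5.34e-06. POMP, which matures the 20S core, had 311 ± 74.0 CPM in K562, 311 ± 18 in HepG2 and 754 ± 171 in GM12878. It was called lower in both lines against GM12878, by log2 changes of -1.25 ± 0.22 in HepG2 and -1.28 ± 0.26 in K562, with adjusted p-values of 3.59e-06 and 6.89e-05. PSMF1 was also called higher and PSMG4 lower in HepG2 against GM12878, PSMG1 higher and TXNL1 lower in K562 against GM12878, and PSMG1 and PAAF1 higher and ADRM1, a ubiquitin receptor, lower in K562 against HepG2.

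Regulators of proteasome genes, 4 of 9 tested, had 1 gene called higher and 0 lower, 2 and 0, and 2 and 1 in the 3 comparisons in the same order. Over all tested genes, 28% were called higher and 21.1% lower, 13.9% and 14.8%, and 17.4% and 26.7%, in that order. NFE2L1 had 72.7 ± 38.6 CPM in K562, 164 ± 55.9 in HepG2 and 81.8 ± 51.2 in GM12878, and was called higher in HepG2 than in GM12878, by 1.21 ± 0.39 with an adjusted p of 0.00668, and lower in K562 than in HepG2, at -1.08 ± 0.39 with an adjusted p of 0.0172. MAFG, a partner of NFE2L1, changed by 2.33 ± 0.65 in K562 against GM12878, with an adjusted p of 0.00369. MAFG had 36 reads in K562 and 6 in GM12878, so this change rests on few reads. NGLY1, which processes NFE2L1, and MAFG were called higher in K562 than in HepG2, and NGLY1 also in K562 against GM12878. Ubiquitin genes and shuttle factors, 16 of 18 tested, had 1 higher and 2 lower, 3 and 2, and 3 and 1, beside the same shares over all tested genes. UBA1, the main ubiquitin-activating enzyme, changed by -1.33 ± 0.25 in HepG2 and by -1.55 ± 0.30 in K562 against GM12878, with adjusted p-values of 1.24e-05 and 3.41e-05. UBE2N, a conjugating enzyme, changed by -1.41 ± 0.31 in HepG2 against GM12878, with an adjusted p of 9.8e-05. FAF1 changed by 2.08 ± 0.40 in K562 against GM12878, with an adjusted p of 3.17e-05, and by 1.76 ± 0.34 in K562 against HepG2, with an adjusted p of 1.81e-05. UBE2L3 changed by 1.76 ± 0.24 in K562 against HepG2, with an adjusted p of 1.3e-08. BAG6 was also called higher in HepG2 against GM12878, UBE2L3 higher and UBE2N lower in K562 against GM12878, and UFD1 higher and NPLOC4 lower in K562 against HepG2. POMP, NFE2L1, NGLY1 and the genes listed with no value are outside the naming rule and were chosen after their values were seen.

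Transcript models place each read in a class. Known models match an annotated transcript, incomplete splice matches lack one end of it, other classes join annotated splice sites in new combinations or use an unannotated splice site, and genomic models have no spliced match. Of the reads of the proteasome genes, 46.4 ± 3.07% were known in K562 (SD, n = 2), 42.7 ± 3.23% in HepG2 and 45.6 ± 1.35% in GM12878 (SD, n = 3 each), against 47.7, 39.5 and 45.3% over all other annotated genes. Reads with the 5′ end missing were 19.1 ± 2.45% in K562, 24 ± 3.26% in HepG2 and 19.1 ± 2.02% in GM12878, against 14.6, 21.8 and 14.6%. They were above the other genes in 8 of 8 libraries, by 0.0401 to 6.06 percentage points. Reads with an unannotated splice site were also above the other genes in 8 of 8 libraries, at 11.2 ± 1.65% in K562, 9.57 ± 1.06% in HepG2 and 12.6 ± 3.26% in GM12878, against 6.42, 5.35 and 8.54%. Genomic reads were below the other genes in 8 of 8, at 2.88 ± 0.0998%, 1.87 ± 0.295% and 1.84 ± 0.777%, against 9.84, 11.6 and 10.7%. These shares are descriptions, and no test was made of them.

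**Figure D4:**
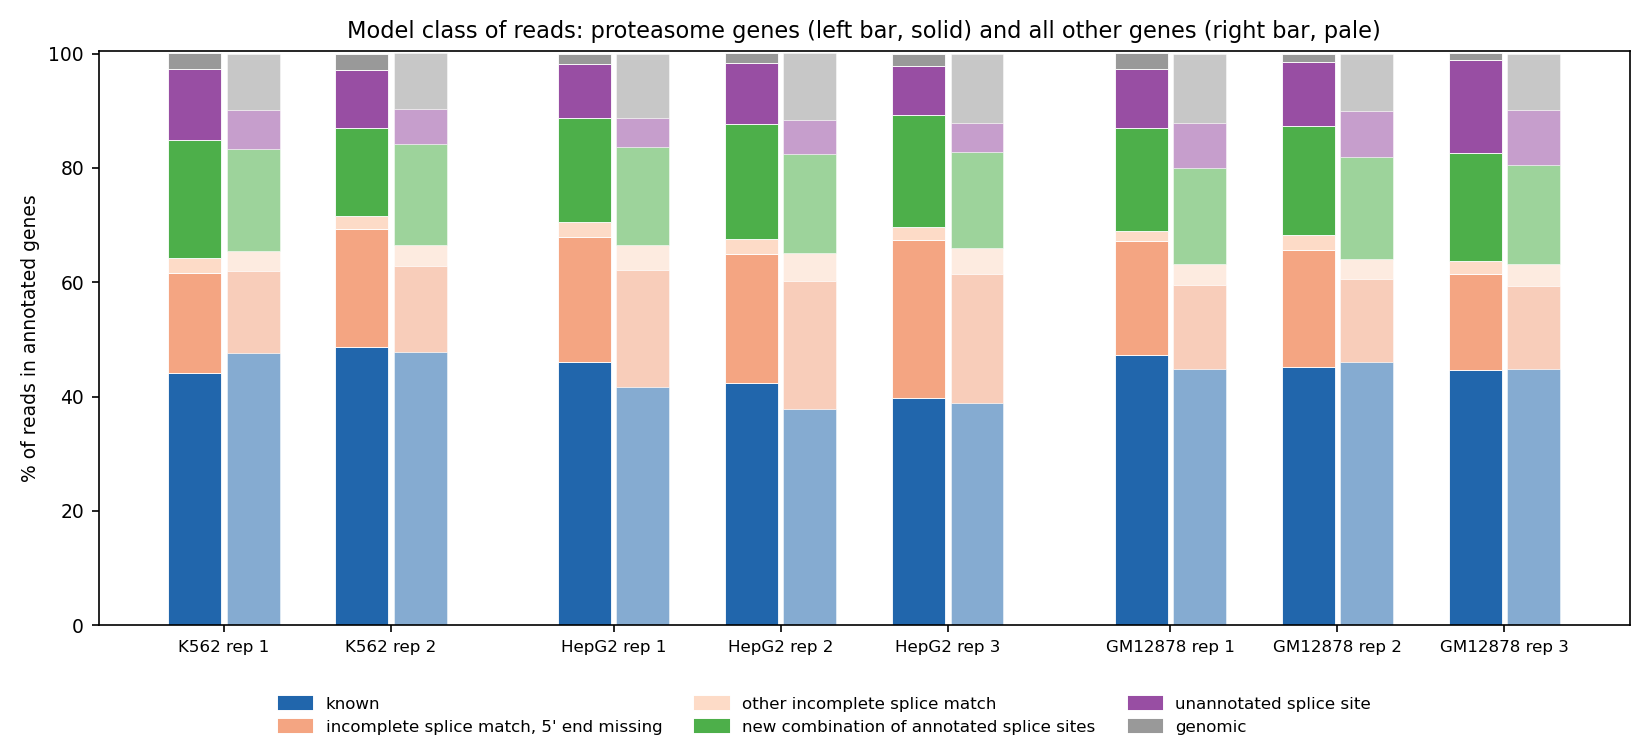
Percent of reads in each model class (y axis) for the proteasome genes (solid bars, left) and all other annotated genes (pale bars, right) in each library (x axis). Genomic reads were 1.26 to 2.95% in the proteasome genes and 9.76 to 12.1% in the others.

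The classes differed widely between the genes. Known models were the largest class of 19 genes, 5′-missing models of 11, new combinations of 6 and genomic models of 2. Among the 34 genes with at least 100 reads the known share was 12.7 to 77.8%, lowest in PSMC1 and PSMD2 and highest in PSMB6. PSMC1 had 71.2% of its reads without the 5′ end, and its leading known transcript was 4448 bases long. With leading known transcripts of 4406 and 4411 bases, PSMD12 had 49.1% and PSMA4 20.8% of such reads. New combinations made up 61.2% of PSMD4 reads and 60.5% of PSMC5 reads. The genomic share was 45.8% in PSME3, 22.3% in PSMD11 and 17% in PSMD7, and PSME4 had no read in a known model. Across the 34 genes the 5′-missing share had a Spearman rho of 0.34 with the length and 0.27 with the exon number of the leading known transcript, a description over genes that share libraries.

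Most genes used 1 known transcript. The leading one was protein coding in 34 of the 37 genes with known reads and held at least 90% of known reads in 23, with a median of 94.1%. For PSMB5 it was PSMB5-202, of 3 exons and 1294 bases, with 61.9% of the gene's reads in K562, 62.2% in HepG2 and 67.1% in GM12878. The reads of PSMB7 were spread over 96 models, and those missing the 5′ end of a known transcript together held 32.3% of them. Its 3 models with the most reads have 8 exons each and differ by a few bases: an unannotated splice site model of 977 bases with 113 reads or 14.3% of the gene's reads, the known PSMB7-201 of 980 bases with 110 or 13.9%, and a new combination of 974 bases with 100 or 12.7%.

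Neither transcript choice nor model class was called to differ between lines for any member. Known transcript usage was tested in 15 members in HepG2 against GM12878 and in 14 in each of the other comparisons, with edgeR, and 0 were called, where 1.89%, 0.571% and 1.15% of all tested genes were called. At an unadjusted p under 0.05 they were 0, 1 and 0, the 1 being PSMB4 with a shift of 4.07 percentage points. Class usage was tested in 36 members in each comparison and 0 were called, where 0.611%, 0.164% and 0.0282% of all tested genes were called. At an unadjusted p under 0.05 they were 0, 0 and 3, namely PSMB1, PSME2 and PSMD11 in K562 against HepG2, with largest shifts of 10.7, 27.6 and 30.2 points. The lowest adjusted p of a member was 0.507. With such low shares over all tested genes, 0 calls among 14 to 36 members do not show that usage was equal between lines. PSMB4, PSMB1, PSME2 and PSMD11 are named here after their values were seen.

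**Figure D5:**
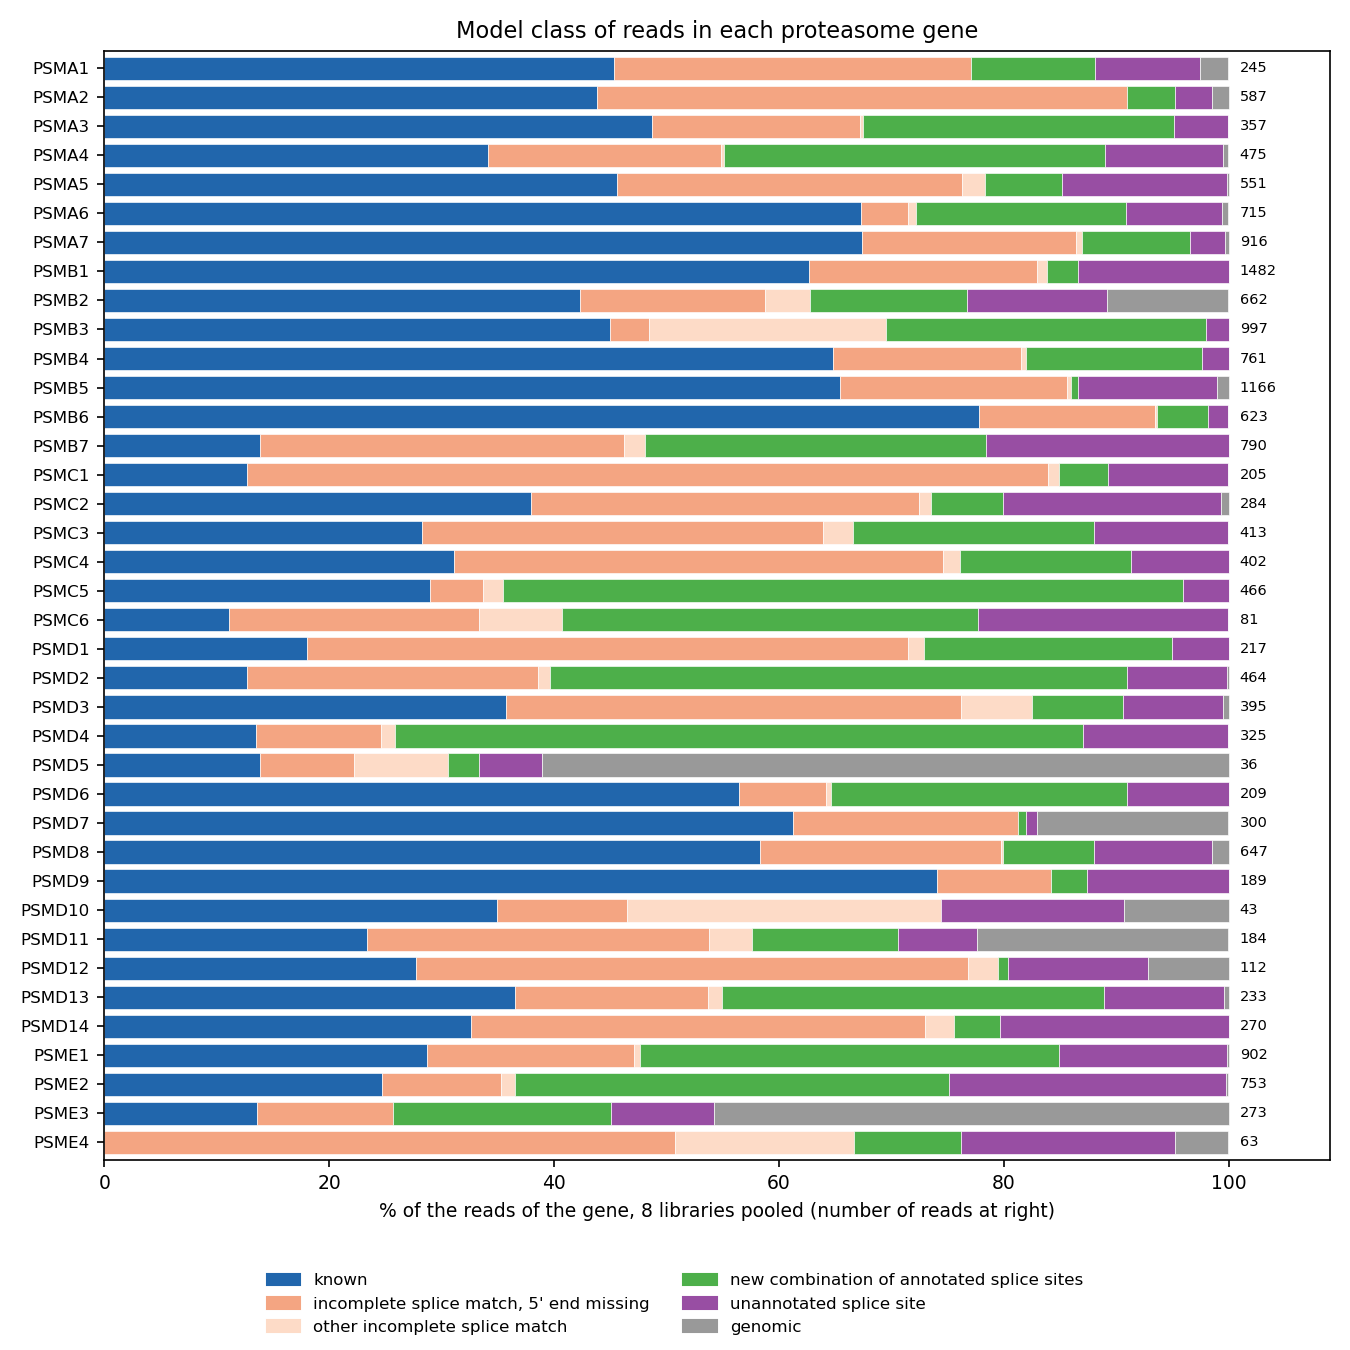
Percent of each proteasome gene's reads in each model class (x axis), pooled over 8 libraries, by gene (y axis), with the number of reads at the right. Known models range from 0 in PSME4 to 77.8% in PSMB6, and PSMC1 is led by models without the 5′ end, at 71.2%.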

How the data were processed

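The submitters' processing notes name minimap2 and the build hg38, with tool versions not given in the sources used here, and per the labels the tables are TALON output. The 3 deposited tables give raw read counts per transcript model, not normalized, per the file headers, beside other deposited values, the exons and bases of a model. Counts of all models of a gene were summed. Genes were filtered with filterByExpr, scaled by TMM and tested with edgeR 4.0.16 in R 4.3.3 (quasi-likelihood, robust, two-sided, Benjamini-Hochberg over 4778 genes) in 1 fit over 8 libraries. A call needed an adjusted p under 0.05 and at least 2-fold. Usage was tested with diffSpliceDGE at a minimum of 10 reads and called with a shift of at least 10 percentage points. Coordinates and transcript types come from GENCODE release 29 on GRCh38. Calls were repeated with DESeq2 1.42.0 and other settings, and procedures were tested on simulated data.

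Values in every library are given for called members and for the highest and lowest of each subcomplex. Of other pathway genes, up to 6 called with the largest change and at least 50 CPM in the higher line were named per comparison, and 1 called gene of the ubiquitin list is not reported here. Members, lists and tests were chosen with earlier results of these data known. Same-numbered libraries did not deviate together, so no block entered the tests. PSMA6 and PSME2 share sequence with the processed copies PSMA6P1 and PSME2P2, which had 26 and 23 reads, and how reads were split is uncertain. Promoter windows of PSMA7, PSMB1, PSMB6, PSMB7 and PSMD4 were not used here.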

Additional observations from a re-analysis of the deposited data

How the results depend on the processing

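No call of a proteasome gene changed direction. The calls of PSMB5 and PSME1, of PSMA6 in K562 against HepG2 and of PSME2 in K562 against GM12878 held in 15 of 15 alternatives each. Every alternative scaled the libraries by TMM or DESeq2 size factors. TMM factors were 0.8065 to 0.8709 in HepG2 and 1.037 to 1.197 in the other lines. Whether calls near the 2-fold limit would hold without such scaling was not tested. Several changes under 2-fold were less stable at an adjusted p under 0.05. In K562 against GM12878, PSMA6 passed in 6 of 15 alternatives and PSMB5 in 10. PSMC3 passed in 9 of 15 in HepG2 against GM12878 and in 10 in K562 against HepG2, where PSMC2 passed in 12. PSMA4 in HepG2 against GM12878, and PSMD8 and PSMD13 in K562 against HepG2, passed in 15 of 15. With DESeq2, 3 members passed an adjusted p under 0.05 at any fold in K562 against GM12878, against 6 with edgeR, and 9 in K562 against HepG2, against 15. With no filter, 3746 genes were called in HepG2 against GM12878, against 2348, and 3298 in K562 against HepG2, against 2105. With known models only, genes called were 777, 459 and 714 in HepG2 against GM12878, K562 against GM12878 and K562 against HepG2, and 3 members passed at any fold in the second. With only both compared lines in the fit, 5 members were called in HepG2 against GM12878, against 3. Leaving out 1 library gave 1 to 5, 2 to 6 and 5 to 7 members called in the 3 comparisons, and 7 to 14, 4 to 7 and 8 to 15 at any fold, with 1898 to 2979, 1114 to 1855 and 1675 to 2503 genes called. Over the same left-out libraries, known transcript usage was called in 6 to 21, 4 to 6 and 2 to 10 genes, and class usage in 7 to 33, 1 to 5 and 0 to 2, with 0 members in each. Same-numbered libraries had deviation correlations of -0.05 to 0.037, so the numbers do not pair them. With the replicate block, known usage was called in 4 genes and class usage in 0 in K562 against HepG2, against 9 and 1, and PSMA7 there was at -0.96. At a minimum of 20 reads, class usage was called in 2 genes in K562 against GM12878 and 4 in K562 against HepG2. With the genomic class left out it was called in 9, 0 and 0. Over known models alone the summed level was 4560 CPM in K562, 4950 in HepG2 and 4830 in GM12878, and without TMM factors it was 8810 in HepG2. As a mean over members the known share was 41.6% in K562, 35.8% in HepG2 and 44.2% in GM12878, and the 5′-missing share 29.1% in HepG2. PSMA7 was at -0.97 in K562 against HepG2 with only those lines. PSME4 had 0 reads in K562 replicate 1, so without replicate 2 its fitted changes are no measure of size. PSMD5 did not pass the filter in 7 and 6 of the alternatives in K562 against GM12878 and against HepG2. The cause of these differences was not tested. Depth limits the members with few reads, of which PSMD5, PSMD10, PSME4 and PSMC6 had 36 to 81.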

Other observations

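Of the 8 called genes, 5 lie on chromosome 14, a grouping noticed after the values were seen. The share called in at least 1 comparison was 65.5% over all 4778 tested genes and was not computed for chromosome 14 alone. That chromosome holds 7 of the 38 members, namely PSMA3, PSMA6, PSMB5, PSMC1, PSMC6, PSME1 and PSME2, of which 6 were tested. In K562 against HepG2 their median log2 change was -1.74, against 0.15 for the other 30 tested members, and the 159 tested genes of the chromosome had a median of -0.94. In K562 against GM12878 the same medians were -0.94, -0.02 and -0.34, and in HepG2 against GM12878 0.13, -0.20 and 0.34. PSMA7, on chromosome 20, was at -1.15 in K562 against HepG2 and 0.81 in HepG2 against GM12878, where the 168 tested genes of that chromosome had medians of -1.23 and 1.02. Chromosome 17 also holds 7 members, all tested, with medians of -0.18 in K562 against HepG2 and 0.09 in HepG2 against GM12878, beside -0.52 and 0.35 for its 355 tested genes.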
